A study of Homo sapiens with 4 samples.

Results

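The genes described here are 33 regulators of entry into mitosis, exit from it and cytokinesis, measured in BJ human foreskin fibroblasts. They were taken by symbol from a table of 58870 genes, and each symbol was found. The tested cells received Dox at 250 nM for 24 h (2 libraries, titled as aged) and the reference cells received DMSO, the solvent, in its place (2 libraries, titled as young controls). The series design then leaves the cells for 10 days to senesce, whereas the wording of the treatment protocol can be read in the reverse order. All libraries come from total RNA of 1 cell line at 1 time point, and no label says whether the replicates were separate cultures. P-values therefore measure only the spread between these libraries, which may be technical.

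Entry into mitosis is driven by the kinase CDK1 bound to cyclin A or cyclin B, and is switched on when CDC25 phosphatases remove the phosphates that WEE1 and PKMYT1 add. Polo-like and Aurora kinases then build the spindle, and the anaphase-promoting complex, helped by CDC20, UBE2C and UBE2S, marks securin and the cyclins for destruction so that chromosomes separate. A midzone of bundled microtubules recruits the proteins that close the cleavage furrow. Most of these genes are transcribed in G2 and mitosis under FOXM1, MYBL2 and the MuvB complex, and dividing fibroblasts carry their mRNAs while arrested fibroblasts carry few.

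Depth was similar among libraries, at 42880682 and 43429426 expected counts in the Dox libraries and 42744729 and 47798920 in the DMSO libraries. The Dox libraries differed from each other more than the DMSO libraries did, with a chi-square per degree of freedom of 60.5 for the Dox pair and 2.40 for the DMSO pair. That difference moved with base composition. Across 16717 genes, the log2 ratio of Dox replicate 1 to replicate 2 had a Spearman rho of -0.58 with GC content. This is a correlation across genes of the same libraries. Among the 33 genes the inverse ratio, replicate 2 to replicate 1, had a rho of 0.35, which is the same direction. The 7SL RNA genes RN7SL1 and RN7SL2 took 14.7% and 12.6% of the counts in the Dox libraries and 17.6% and 17.4% in the DMSO libraries, and 32.99% and 42.3% of TPM in the Dox libraries against 43.9% and 43.8% in the DMSO libraries. Levels below are therefore given as CPM, the counts scaled to a common library total with TMM factors, and TPM serves only to compare levels between genes. Of 9 fibroblast markers, 3 were lower and 3 higher in Dox, and their summed level was 20536 and 25175 CPM in Dox libraries and 28536 and 28101 CPM in DMSO libraries. All 4 endothelial and all 4 melanocyte markers were under 1 CPM in every library. So were 5 of 6 keratinocyte markers, while KRT10 had 12.3 and 10.6 CPM in Dox libraries and 9.85 and 9.94 CPM in DMSO libraries (log2 fold change 0.21, edgeR adjusted p = 0.202). Immune markers summed to 26.1 and 28.1 CPM in Dox libraries and 6.28 and 5.82 CPM in DMSO libraries. This sum came from CD68 and PTPRC, with CD3E at 0 counts in every library and 3 of the 5 immune markers under 1 CPM throughout. The 3 smooth muscle markers were all lower in Dox, at summed levels of 153 and 161 CPM against 780 and 794 CPM in DMSO. Of 4 proliferation markers outside the 33 genes, 3 were lower in Dox and 1 was higher. TOP2A, RRM2 and MCM2 had log2 fold changes of -1.40, -1.29 and -0.84 (edgeR adjusted p = 0.000198, 0.00076 and 0.0108). PCNA was higher, with a log2 fold change of 0.40 (edgeR adjusted p = 0.0176). Whether these marker differences have a part in the results below was not tested.

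Most mitotic regulators were lower in Dox-treated than in DMSO-treated fibroblasts. Of the 33 genes, all of which passed the count filter, 26 fell, none rose and 7 did not pass edgeR's quasi-likelihood test at an adjusted p of 0.05. By the same rule 13.8% of the 16749 tested genes were lower, 16.5% were higher and 30.3% were either. The median log2 fold change (Dox over DMSO) of the 33 was -1.27, or 2.41-fold lower in Dox, beside a median of 0.00 over all tested genes. A fall of at least 2-fold was called for 21 of the 33, against 3.34% of all tested genes. Both Dox libraries lay below both DMSO libraries for 31 genes, an arrangement that 34.5% of all tested genes showed, and above them for 1 gene, as for 34.6% of all tested genes. Tested against a fold of 1.5 with glmTreat, 21 of the 33 were lower, against 2.87% of all tested genes. The summed level of the 33 was 247 and 241 CPM in the Dox libraries and 401 and 404 CPM in the DMSO libraries. In bulk RNA, fewer cells that carry these mRNAs and less of the mRNA per cell cannot be told apart.

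**Figure D1:**
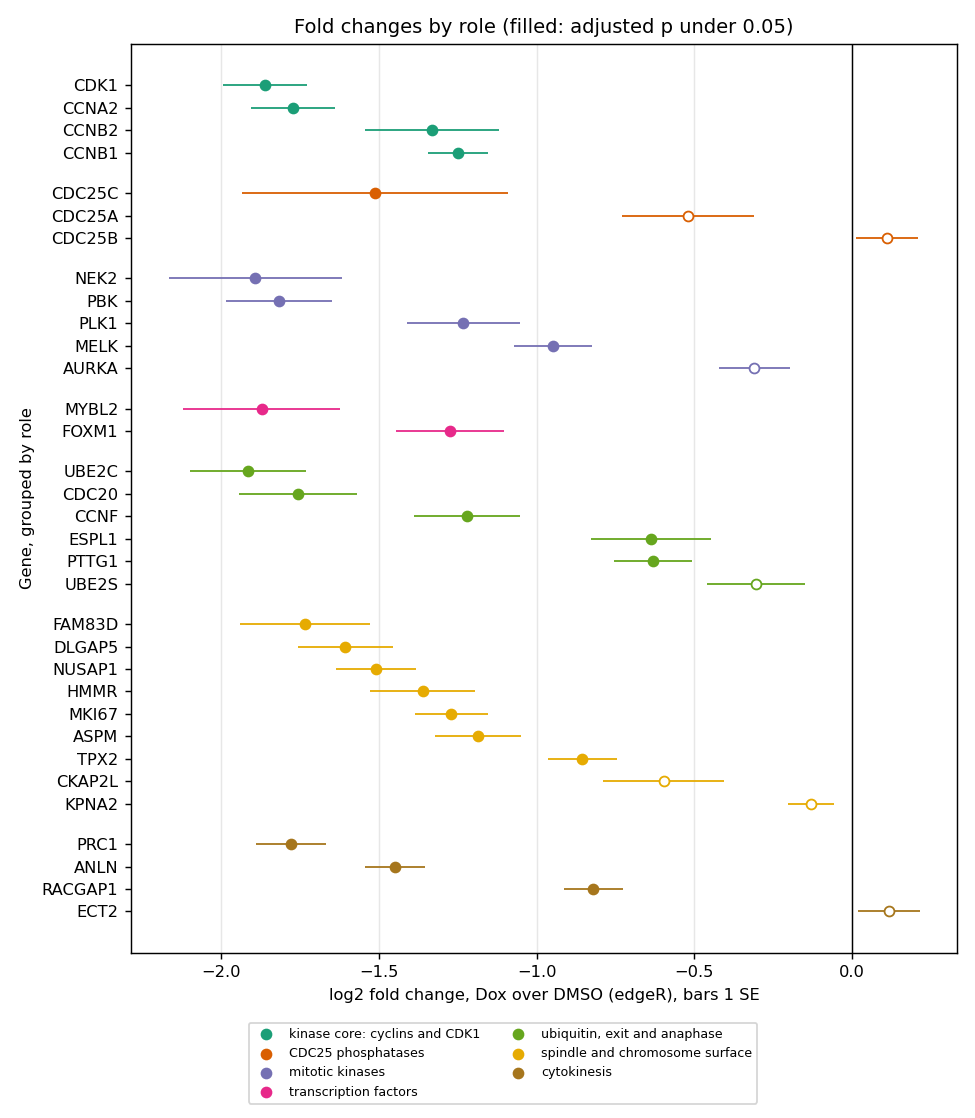
Log2 fold change (Dox over DMSO, horizontal axis) of each of the 33 genes with bars of 1 standard error, grouped and coloured by role on the vertical axis, from edgeR, and filled where the adjusted p is under 0.05. The points for 31 genes lie below 0 and those for CDC25B and ECT2 lie above it, at 0.11 and 0.12.

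**Figure D2:**
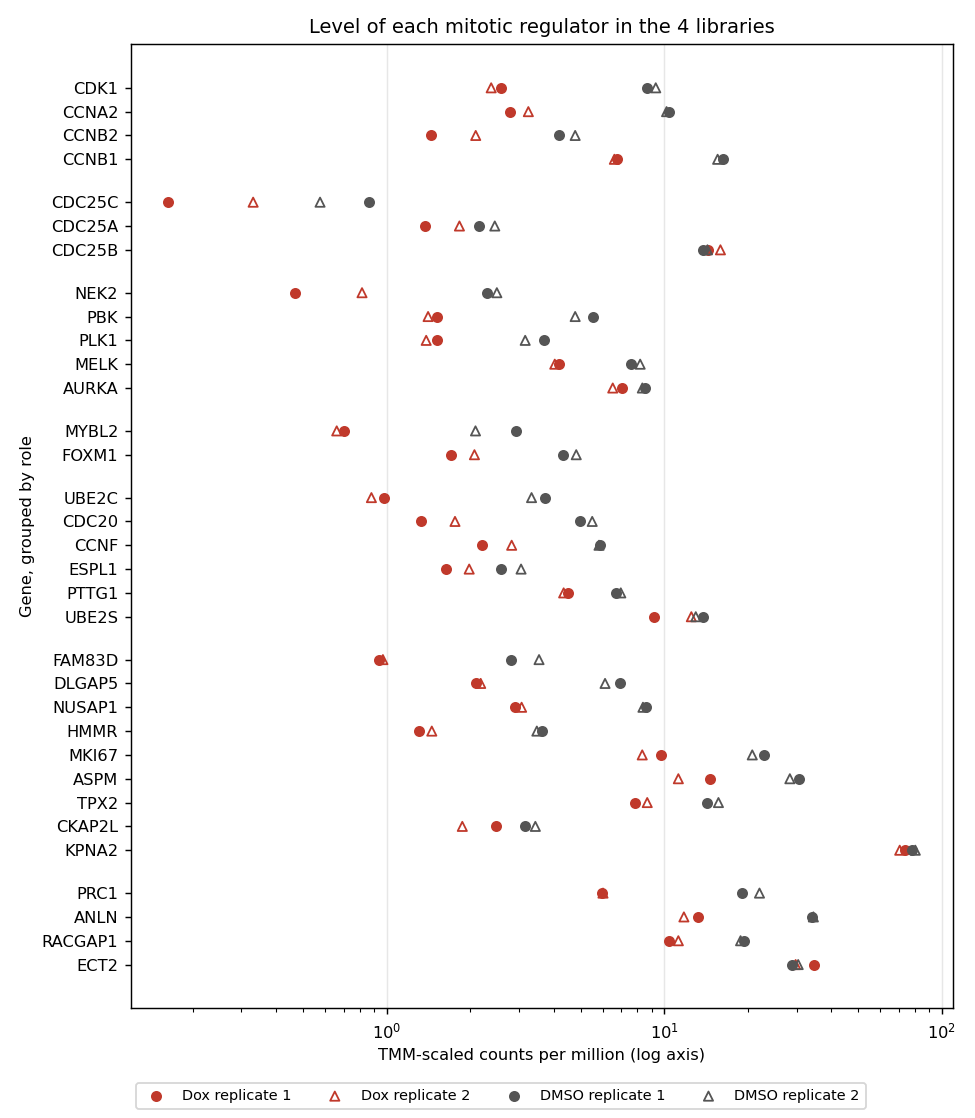
CPM with TMM scaling (log axis) of each of the 33 genes in the 4 libraries, with the Dox libraries in red and the DMSO libraries in grey. KPNA2 is the highest by this scale in every library, and CDC25C the lowest.

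Levels between genes can be compared only per length, by TPM. In DMSO libraries KPNA2, an importin that carries TPX2 and other cargo, averaged 12.7 ± 0.481 TPM (SD, n = 2) and stood clear of the rest. PTTG1 followed with 3.64 ± 0.156 TPM, and PRC1 with 3.11 ± 0.382 TPM did not differ from CCNB1 with 2.89 ± 0.311 TPM beyond their spread. CDC25C was the lowest at 0.13 ± 0.0424 TPM, but did not differ from ESPL1 with 0.18 ± 0.0424 TPM beyond their spread. In Dox libraries the order began with KPNA2 at 13.1 ± 3.98 TPM and ECT2 at 3.57 ± 0.552 TPM. CDC25C was again the lowest at 0.065 ± 0.0636 TPM, followed by MYBL2 at 0.09 ± 0.0283 TPM. In Dox replicates 1 and 2 CDC25C had 0.02 and 0.11 TPM and MYBL2 had 0.07 and 0.11 TPM. The SDs of TPM in Dox include a difference in scale that all genes of a library share. Most of these mRNAs were thus of low abundance in either condition. Across the 33 genes, those with lower mean CPM had the more negative log2 fold changes. The Spearman rho was 0.45 over genes that share the same 4 libraries. The mean CPM includes the Dox libraries that also enter the fold change, so part of this rho may follow from the calculation.

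Many promoters of mitotic genes carry a cell cycle homology region (CHR), the site for the MuvB complex, together with CCAAT boxes. A search of the RefSeq window from 250 bases before to 50 bases after the transcription start (GRCh38.p14) was possible for 26 of the 33 genes. The letters searched, on either strand and each palindrome counted once, were the canonical CHR letters TTTGAA, the variant TTTAAA, the rarer variant TTCGAA, the box CCAAT, and for E2F the letters TTTGGCGC, the letters TTTCCCGC, the letters TTTCGCGC and the letters TTTGCCGC. At least 1 CHR match was in 18 of the 26 windows (69.2%), against 17.7% of 10979 windows of other tested genes and 25.3% of all 27305 windows. CCAAT was in 21 windows (80.8%), against 36.6% of other tested genes, and 2 or more copies were in 15 (57.7%), against 13.3%. E2F letters were in 3 windows (11.5%), against 5.21%. A CHR match was in 15 of the 20 windows of genes that fell and in 3 of the 6 of genes that did not pass, and CCAAT was in 16 of 20 and 5 of 6. No search letters were found in the windows of MYBL2, CDC25C, MELK and CDC25B, which says only that these letters are not there. The 120 bases before the start are printed for 5 genes that fell (CCNB1, CCNB2, CDC20, PLK1, PRC1) and 4 that did not pass (CKAP2L, KPNA2, ECT2, CDC25B), 5′ to 3′ on the gene's strand, with CHR and CCAAT matches in capitals.
CCNB1 (chr5:69167030-69167149, plus strand): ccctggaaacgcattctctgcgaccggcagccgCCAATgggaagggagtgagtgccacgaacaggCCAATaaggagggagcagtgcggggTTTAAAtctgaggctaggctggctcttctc
CCNB2 (chr15:59105026-59105145, plus strand): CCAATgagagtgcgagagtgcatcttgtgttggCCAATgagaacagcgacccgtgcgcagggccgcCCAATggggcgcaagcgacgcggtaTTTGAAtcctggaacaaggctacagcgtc
CDC20 (chr1:43358861-43358980, plus strand): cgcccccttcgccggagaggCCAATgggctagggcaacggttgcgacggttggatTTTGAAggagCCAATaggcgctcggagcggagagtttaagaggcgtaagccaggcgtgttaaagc
PLK1 (chr16:23678769-23678888, plus strand): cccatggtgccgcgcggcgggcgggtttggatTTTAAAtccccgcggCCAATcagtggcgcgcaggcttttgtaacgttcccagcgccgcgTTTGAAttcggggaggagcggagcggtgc
PRC1 (chr15:90994536-90994655, minus strand): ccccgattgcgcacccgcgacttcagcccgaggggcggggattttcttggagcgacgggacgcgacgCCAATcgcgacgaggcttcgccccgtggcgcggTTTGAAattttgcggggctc
CKAP2L (chr2:112764610-112764729, minus strand): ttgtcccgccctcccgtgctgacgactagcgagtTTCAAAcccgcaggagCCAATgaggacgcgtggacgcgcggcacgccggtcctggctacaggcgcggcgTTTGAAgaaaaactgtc
KPNA2 (chr17:68035615-68035734, plus strand): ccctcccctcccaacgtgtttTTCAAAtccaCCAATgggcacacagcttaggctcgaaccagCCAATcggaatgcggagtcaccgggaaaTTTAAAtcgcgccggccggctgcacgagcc
ECT2 (chr3:172750606-172750725, plus strand): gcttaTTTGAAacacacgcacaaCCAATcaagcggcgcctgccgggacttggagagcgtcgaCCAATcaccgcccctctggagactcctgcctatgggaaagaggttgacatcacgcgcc
CDC25B (chr20:3786831-3786950, plus strand): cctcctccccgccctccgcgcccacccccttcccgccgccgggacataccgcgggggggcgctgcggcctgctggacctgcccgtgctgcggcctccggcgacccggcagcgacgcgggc
In these runs CCNB2 has CCAAT at positions -120, -87 and -54 and TTTGAA at -29, counted from the start to the first base of the match. CCNB1 has CCAAT at -87 and -55 and TTTAAA at -30, and KPNA2, which did not pass, has TTTAAA at the same position, -30. ECT2 has its only CHR match before the start at -115, and CDC20 has CHR matches at -178, outside the printed run, and at -65. A match is a description of the letters and shows no binding.

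**Figure D3:**
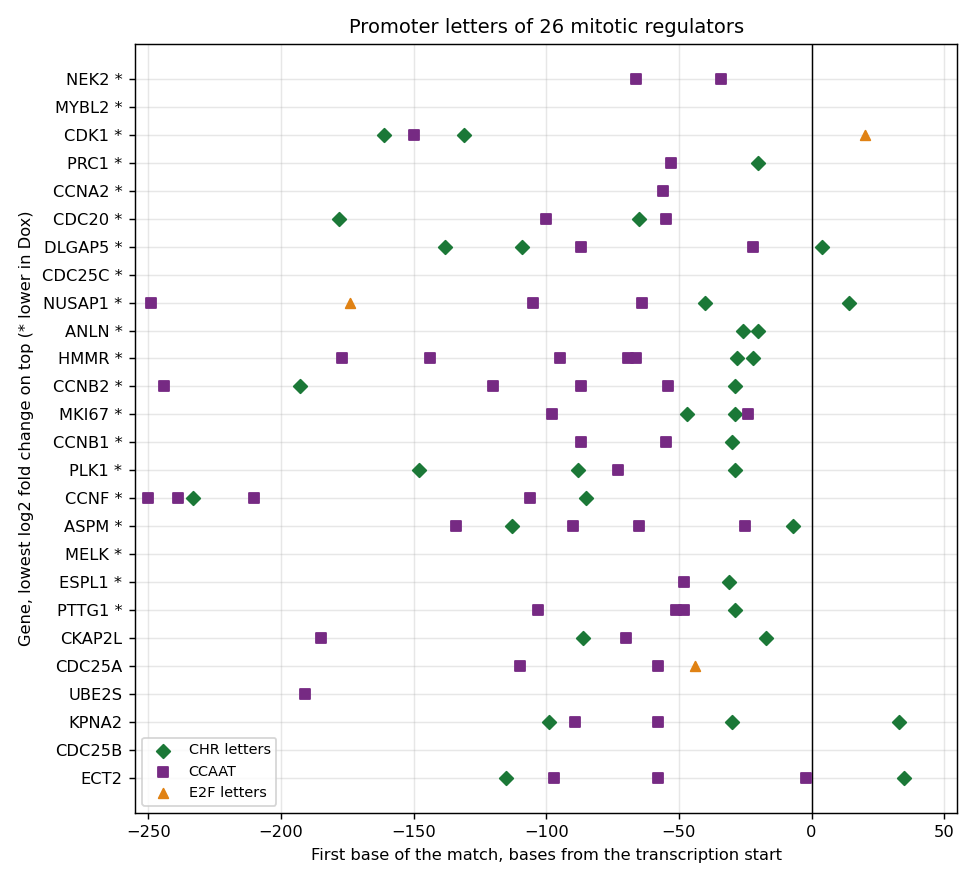
Position of each match to the CHR (green), CCAAT (purple) and E2F (orange) letters, in bases from the transcription start (horizontal axis), for the 26 genes with a window, ordered from the lowest log2 fold change on top, with an asterisk for genes that were lower in Dox. CHR matches appear in 18 rows and CCAAT in 21, among genes that fell and among genes that did not pass, and 4 rows are empty.

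The kinase core fell in 4 of 4 cases: CDK1 and the cyclins that activate it, CCNA2, CCNB1 and CCNB2, were all lower in Dox. CDK1 (chr10:60778331-60794852, GRCh38) had 2.57 and 2.38 CPM in Dox libraries and 8.67 and 9.32 CPM in DMSO libraries. It averaged 2.48 ± 0.135 CPM in Dox and 8.998 ± 0.458 CPM in DMSO (SD, n = 2 each), a log2 fold change of -1.86 (SE 0.13, edgeR adjusted p = 0.00035). CCNA2 (chr4:121816444-121823933), the cyclin of S phase and early mitosis, had 2.78 and 3.24 CPM in Dox libraries and 10.4 and 10.2 CPM in DMSO libraries (log2 fold change -1.77, SE 0.13, edgeR adjusted p = 0.000405). Neither gene overlapped between groups. CCNB1 (chr5:69167010-69178245), the main mitotic cyclin, had 6.78 and 6.61 CPM in Dox libraries against 16.3 and 15.6 CPM in DMSO libraries (log2 fold change -1.249, SE 0.10, edgeR adjusted p = 0.00045). CCNB2 (chr15:59105078-59125045), a cyclin found at the Golgi, had 1.45 and 2.09 CPM in Dox libraries against 4.17 and 4.78 CPM in DMSO libraries (log2 fold change -1.33, SE 0.21, edgeR adjusted p = 0.00583). The 2 groups were separate for both cyclins, with the Dox libraries of CCNB2 more spread than those of CCNB1. CCNA2 overlaps EXOSC9, which had 525 and 559 counts in Dox libraries and 634 and 750 in DMSO libraries, and because the strand setting of the counting is not given in the sources used here, reads of the overlap cannot be told apart.

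The CDC25 phosphatases, which remove the inhibitory phosphates from CDK1, did not move as a set: 1 of 3 fell. CDC25C, the one most tied to mitotic entry, had 0.164 and 0.331 CPM in Dox libraries and 0.863 and 0.576 CPM in DMSO libraries (log2 fold change -1.51, SE 0.42, edgeR adjusted p = 0.0393). These values rest on 7 and 15 counts in Dox and 36 and 27 counts in DMSO. The call was lost with library totals, DESeq2, glmTreat at 1.5-fold, counts per kb and limma on TPM, and without DMSO replicate 1. Overlapping CDC25C, FAM53C had 1396 and 1612 counts in Dox and 1527 and 1677 in DMSO. CDC25A, which also acts at the start of S phase, had 1.38 and 1.83 CPM in Dox libraries and 2.16 and 2.45 CPM in DMSO libraries (log2 fold change -0.52, SE 0.21, edgeR adjusted p = 0.109). CDC25A passed as lower with the replicate block and GC-trend offsets together. CDC25B (chr20:3786772-3806121), which acts at centrosomes in G2, had 14.4 and 15.9 CPM in Dox libraries against 13.8 and 14.3 CPM in DMSO libraries (log2 fold change 0.11, SE 0.10, edgeR adjusted p = 0.431). It was the only one of the 33 with both Dox libraries above both DMSO libraries, by a margin within the spread of the Dox pair. No call is taken for CDC25B from a fit with a lone Dox library, whose spread comes from the DMSO pair.

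Mitotic kinases fell in 4 of 5 cases. PLK1 (chr16:23677656-23690367), the Polo kinase of spindle assembly and mitotic entry, had 1.52 and 1.39 CPM in Dox libraries and 3.69 and 3.16 CPM in DMSO libraries (log2 fold change -1.23, SE 0.18, edgeR adjusted p = 0.00419). NEK2, which separates centrosomes, had 0.468 and 0.816 CPM in Dox libraries and 2.30 and 2.50 CPM in DMSO libraries (log2 fold change -1.89, SE 0.28, edgeR adjusted p = 0.00426). PBK, a mitotic kinase also called TOPK, had 1.52 and 1.41 CPM in Dox libraries against 5.56 and 4.78 CPM in DMSO libraries (log2 fold change -1.82, SE 0.17, edgeR adjusted p = 0.000853). Its overlapping neighbour ESCO2 had 30 and 45 counts in Dox and 99 and 144 in DMSO. MELK, a kinase of proliferating cells, fell by 0.95 on the log2 scale (SE 0.12, edgeR adjusted p = 0.00295). AURKA, the Aurora kinase of centrosomes and spindle poles, differed less, with 7.06 and 6.53 CPM in Dox libraries and 8.51 and 8.34 CPM in DMSO libraries (log2 fold change -0.31, SE 0.11, edgeR adjusted p = 0.0836). Its groups did not overlap, and it passed as lower with GC-trend offsets.

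The transcription factors FOXM1 and MYBL2, which activate the mitotic genes with the MuvB complex, both fell. FOXM1 (chr12:2857681-2877155) had 1.71 and 2.07 CPM in Dox libraries and 4.34 and 4.82 CPM in DMSO libraries (log2 fold change -1.27, SE 0.17, edgeR adjusted p = 0.00322). MYBL2 had 0.701 and 0.661 CPM in Dox libraries and 2.92 and 2.09 CPM in DMSO libraries (log2 fold change -1.87, SE 0.25, edgeR adjusted p = 0.0031), on 30 and 30 counts in Dox and 122 and 98 in DMSO. FOXM1 overlaps RHNO1, which had 362 and 363 counts in Dox and 513 and 587 in DMSO. Of 11 DREAM and MuvB partners, which repress or activate the same promoters, 1 fell, none rose and 10 did not pass, with a median log2 fold change of -0.16. The counts of this and every further list stand beside 13.8% lower and 16.5% higher of all tested genes. The gene that fell was LIN54, the subunit that contacts the CHR, with 17.3 and 14.9 CPM in Dox libraries and 24.3 and 22.3 CPM in DMSO libraries (log2 fold change -0.53, SE 0.11, edgeR adjusted p = 0.0134). LIN54 did not pass without DMSO replicate 1. How many partners passed depended on which library was left out, as did the calls over all tested genes.

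Among regulators of ubiquitin and anaphase, 5 of 6 fell. UBE2C (chr20:45812576-45816957), the ubiquitin-conjugating enzyme that starts chains on substrates of the anaphase-promoting complex, had 0.982 and 0.882 CPM in Dox libraries and 3.71 and 3.33 CPM in DMSO libraries. With averages of 0.932 ± 0.0709 CPM in Dox and 3.52 ± 0.273 CPM in DMSO (SD, n = 2 each), its log2 fold change of -1.91 (SE 0.18, edgeR adjusted p = 0.000946) was the most negative of the 33. UBE2S, which lengthens those chains, had 9.19 and 12.5 CPM in Dox libraries and 13.8 and 13.0 CPM in DMSO libraries (log2 fold change -0.30, SE 0.16, edgeR adjusted p = 0.188). The UBE2S groups did not overlap, but the SD of its Dox pair, 2.36 CPM, was close to the difference between the group means, 10.9 CPM in Dox and 13.4 CPM in DMSO. UBE2S passed as lower with GC-trend offsets. UBE2S overlaps RPL28 on the opposite strand, which had 6383 and 6851 counts in Dox and 5376 and 6084 in DMSO, and the reads cannot be told apart without the strand setting. CDC20 (chr1:43358955-43363203), the activator of the complex, had 1.33 and 1.76 CPM in Dox libraries and 4.98 and 5.50 CPM in DMSO libraries (log2 fold change -1.76, SE 0.19, edgeR adjusted p = 0.00134). CCNF, the F-box cyclin of G2, had 2.20 and 2.82 CPM in Dox libraries and 5.89 and 5.82 CPM in DMSO libraries (log2 fold change -1.22, SE 0.17, edgeR adjusted p = 0.00349). PTTG1, which is securin, fell by 0.63 on the log2 scale (SE 0.12, edgeR adjusted p = 0.0119), and ESPL1, the separase it holds back, fell by 0.64 (SE 0.19, edgeR adjusted p = 0.0476). Both calls were lost when either DMSO library was left out, with glmTreat at 1.5-fold and with limma on TPM. That of ESPL1 was also lost with library totals, with DESeq2 and with counts per kb.

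Beyond the 33, of 16 tested subunits and regulators of the anaphase-promoting complex 5 fell (31.2%), 2 rose (12.5%) and 9 did not pass, with a median log2 fold change of -0.16. FBXO5, the inhibitor also called EMI1, had 2.13 and 2.80 CPM in Dox libraries and 5.20 and 5.27 CPM in DMSO libraries (log2 fold change -1.08, SE 0.18, edgeR adjusted p = 0.00619). ANAPC16, a small subunit, fell by 0.55 on the log2 scale (SE 0.07, edgeR adjusted p = 0.00318). ANAPC13 and CDC16, further subunits, were higher by 0.34 and 0.29 on the log2 scale (edgeR adjusted p = 0.0348 and 0.0308), and both calls were lost when either DMSO library was left out. The count of lower genes in this list depended on which library was left out, as did the count over all tested genes.

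Genes of the spindle and the surface of mitotic chromosomes fell in 7 of 9 cases, with a median log2 fold change of -1.27. MKI67, the coat protein of mitotic chromosomes used as the Ki-67 proliferation marker, had 9.77 and 8.33 CPM in Dox libraries and 22.9 and 20.8 CPM in DMSO libraries (log2 fold change -1.27, SE 0.12, edgeR adjusted p = 0.000782). TPX2, which activates AURKA and nucleates microtubules, had 7.83 and 8.69 CPM in Dox libraries and 14.2 and 15.7 CPM in DMSO libraries (log2 fold change -0.86, SE 0.11, edgeR adjusted p = 0.00261). ASPM, a spindle pole protein, had 14.7 and 11.2 CPM in Dox libraries and 30.5 and 28.3 CPM in DMSO libraries (log2 fold change -1.19, SE 0.14, edgeR adjusted p = 0.0018). These 3 genes were separate between groups in every library. NUSAP1, DLGAP5, HMMR and FAM83D, which bind spindle microtubules or recruit motors to them, fell by 1.51, 1.61, 1.36 and 1.73 on the log2 scale (edgeR adjusted p = 0.000621, 0.000884, 0.0023 and 0.00197). CKAP2L, a spindle protein, had 2.48 and 1.87 CPM in Dox libraries and 3.14 and 3.43 CPM in DMSO libraries (log2 fold change -0.60, SE 0.19, edgeR adjusted p = 0.0592). It passed as lower with GC-trend offsets, with the replicate block, with no filter and with protein-coding genes alone. KPNA2 had 73.9 and 70.5 CPM in Dox libraries and 77.8 and 80.2 CPM in DMSO libraries (log2 fold change -0.13, SE 0.07, edgeR adjusted p = 0.223). Its groups did not overlap, and the difference was small beside that of TPX2, its cargo. KPNA2 has a near copy, KPNA2P3, at 43.2 and 68.4 counts in Dox and 43.1 and 67.2 in DMSO, so that only a small share of reads could be split.

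Of 7 other importins, 3 were higher in Dox, none was lower and 4 did not pass. KPNA3 and KPNA6, which carry nuclear cargo in interphase, were higher by 0.45 and 0.34 on the log2 scale (edgeR adjusted p = 0.0166 and 0.0173), and no importin passed as higher when either DMSO library was left out. Among 17 further spindle, Aurora and Polo partners, 9 fell, 1 rose and 7 did not pass, with a median log2 fold change of -0.51. KIF20A, a kinesin of the central spindle, had 2.13 and 2.16 CPM in Dox libraries and 10.9 and 10.6 CPM in DMSO libraries (log2 fold change -2.32, SE 0.13, edgeR adjusted p = 0.000137). DEPDC1, a gene of proliferating cells, fell by 1.72 (SE 0.15, edgeR adjusted p = 0.000711). TUBG1, the gamma-tubulin of spindle poles, was higher by 0.32 (SE 0.09, edgeR adjusted p = 0.0398), and lost its call without either DMSO library.

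Of the cytokinesis genes, 3 of 4 fell. PRC1 (chr15:90966038-90995629), which bundles the microtubules of the midzone, had 5.96 and 6.02 CPM in Dox libraries and 19.1 and 22.03 CPM in DMSO libraries (log2 fold change -1.78, SE 0.11, edgeR adjusted p = 0.000221). ANLN, the anillin scaffold of the cleavage furrow, averaged 12.5 ± 1.07 CPM in Dox and 34.2 ± 0.367 CPM in DMSO (SD, n = 2 each; log2 fold change -1.45, SE 0.09, edgeR adjusted p = 0.000252). RACGAP1, a subunit of centralspindlin, had 10.4 and 11.2 CPM in Dox libraries and 19.4 and 18.8 CPM in DMSO libraries (log2 fold change -0.82, SE 0.09, edgeR adjusted p = 0.00165). ECT2 (chr3:172750682-172821474), the exchange factor that RACGAP1 binds to activate RhoA at the furrow, had 34.5 and 29.7 CPM in Dox libraries and 28.8 and 30.4 CPM in DMSO libraries (log2 fold change 0.12, SE 0.10, edgeR adjusted p = 0.406). ECT2 was the only one of the 33 whose groups overlapped. Without Dox replicate 2 it passed as higher, with a log2 fold change of 0.22, and without Dox replicate 1 the log2 fold change of ECT2 was -0.0080. Of 15 further cytokinesis and abscission genes, 4 fell, none rose and 11 did not pass, while 2 were lower with glmTreat at 1.5-fold. The count of lower genes in this list also depended on which library was left out. The 2 with the smallest adjusted p were CEP55, the abscission scaffold, with 2.08 and 2.12 CPM in Dox libraries and 6.66 and 6.804 CPM in DMSO libraries (log2 fold change -1.68, SE 0.14, edgeR adjusted p = 0.000606), and KIF23, the motor of centralspindlin, with 8.02 and 7.32 CPM in Dox libraries and 18.1 and 16.9 CPM in DMSO libraries (log2 fold change -1.19, SE 0.10, edgeR adjusted p = 0.000665).

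The ratio of expected counts between partner genes within a library does not depend on the scaling between libraries. It is given as a description for 6 pairs that were chosen after their values were seen, so that the separation of the groups follows from the choice and is no result. The ratio of UBE2C to UBE2S was 0.107 and 0.0704 in Dox libraries and 0.268 and 0.256 in DMSO libraries. RACGAP1 to ECT2 was 0.302 and 0.378 in Dox libraries and 0.674 and 0.620 in DMSO libraries. TPX2 to AURKA was 1.11 and 1.33 in Dox libraries and 1.67 and 1.88 in DMSO libraries, and TPX2 to KPNA2 was 0.106 and 0.123 in Dox against 0.183 and 0.195 in DMSO. In each of these the partner named first had the lower share in both Dox libraries. CDC25C to CDC25B was 0.0114 and 0.0207 in Dox libraries and 0.0627 and 0.0402 in DMSO libraries, while CCNB1 to CDK1 ran the other way, at 2.64 and 2.78 in Dox libraries and 1.88 and 1.67 in DMSO libraries.

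**Figure D4:**
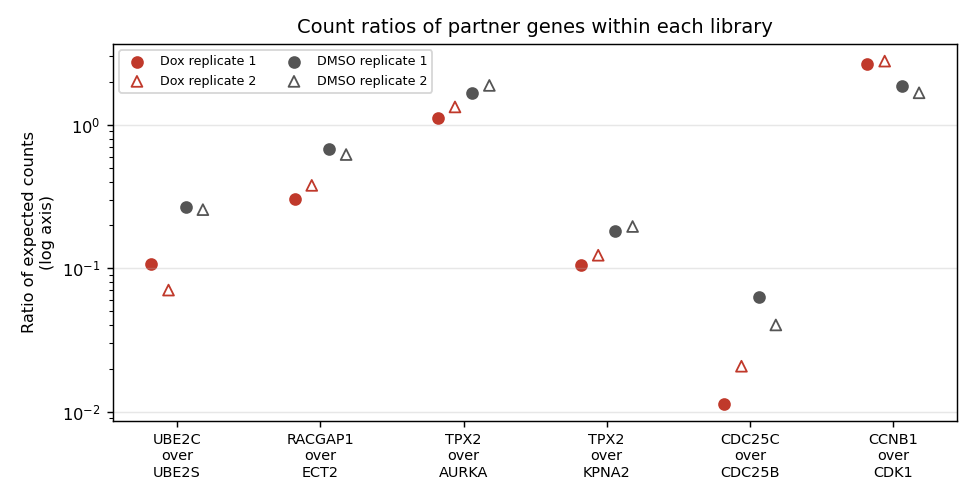
Ratio of expected counts between partner genes in each library (log axis), Dox libraries left of DMSO libraries. The 6 pairs were chosen for their values, and the plot shows the size of each ratio, from 0.0114 for CDC25C to CDC25B in Dox replicate 1 up to 2.78 for CCNB1 to CDK1 in Dox replicate 2.

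Of 8 tested genes in a mixed list of CDK1 inhibitory kinases, checkpoint kinases and brakes, 5 rose, 1 fell and 2 did not pass. Their median log2 fold change was 0.47. CDKN1A, the CDK inhibitor p21, had 848 and 991 CPM in Dox libraries and 467 and 466 CPM in DMSO libraries (log2 fold change 0.98, SE 0.09, edgeR adjusted p = 0.000922). BTG2, an antiproliferative gene, had 34.3 and 31.0 CPM in Dox libraries and 15.6 and 14.9 CPM in DMSO libraries (log2 fold change 1.101, SE 0.09, edgeR adjusted p = 0.000609). CDKN3, a phosphatase that acts on CDKs, fell by 1.52 (SE 0.20, edgeR adjusted p = 0.00287). PKMYT1, named after its values were seen, had 0.398 and 0.838 CPM in Dox libraries and 1.29 and 1.32 CPM in DMSO libraries (log2 fold change -1.07, SE 0.35, edgeR adjusted p = 0.0611). With the replicate block, with GC-trend offsets and with no filter, 2 of this list were lower. SFN was not tested, with 2 or 3 counts in each library. When either DMSO library was left out, 3 of this list were higher; WEE1 and CHEK2, named after their values were seen, lost their calls.

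Of 14 genes of the Greatwall kinase and mitotic phosphatases, which hold CDK1 substrates in or out of phosphorylation, 2 fell and 2 rose (14.3% each) and 10 did not pass, shares close to the 13.8% lower and 16.5% higher of all tested genes. CDC14A, a phosphatase, had 4.35 and 3.90 CPM in Dox libraries and 8.31 and 9.49 CPM in DMSO libraries (log2 fold change -1.11, SE 0.14, edgeR adjusted p = 0.00229), and ENSA, the Greatwall substrate, fell by 0.25 (SE 0.07, edgeR adjusted p = 0.0398), a call lost without either DMSO library. The PP2A subunits PPP2R1B and PPP2R2A were higher by 0.68 and 0.71 (edgeR adjusted p = 0.00178 and 0.00352). Among 11 tested cyclins and kinases of G1 and S phase, 2 fell, 5 rose and 4 did not pass, with a median log2 fold change of 0.27. CCND1, the G1 cyclin D1, had 1160 and 1282 CPM in Dox libraries and 460 and 456 CPM in DMSO libraries (log2 fold change 1.41, SE 0.08, edgeR adjusted p = 0.000155), and CCND2 was higher by 1.15 (SE 0.09, edgeR adjusted p = 0.000538). CCNE2, the S-phase cyclin, and CDK2 fell by 0.97 and 0.35 (edgeR adjusted p = 0.0104 and 0.0458), calls that were lost without DMSO replicate 2 and, for CDK2, also without DMSO replicate 1. Of 8 quiescence and SCF ubiquitin partners, a list that includes USP37 and USP13, 4 fell and none rose. SKP2 and RBX1 were lower by 0.38 and 0.30 (edgeR adjusted p = 0.0097 and 0.0394). None of the 8 was lower when either DMSO library was left out. In all, 28 of the 107 genes tested in these lists fell (26.2%, against 13.8% of all tested genes), 18 rose (16.8%, against 16.5%) and 61 did not pass. The share that rose was close to that of all tested genes.

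**Figure D5:**
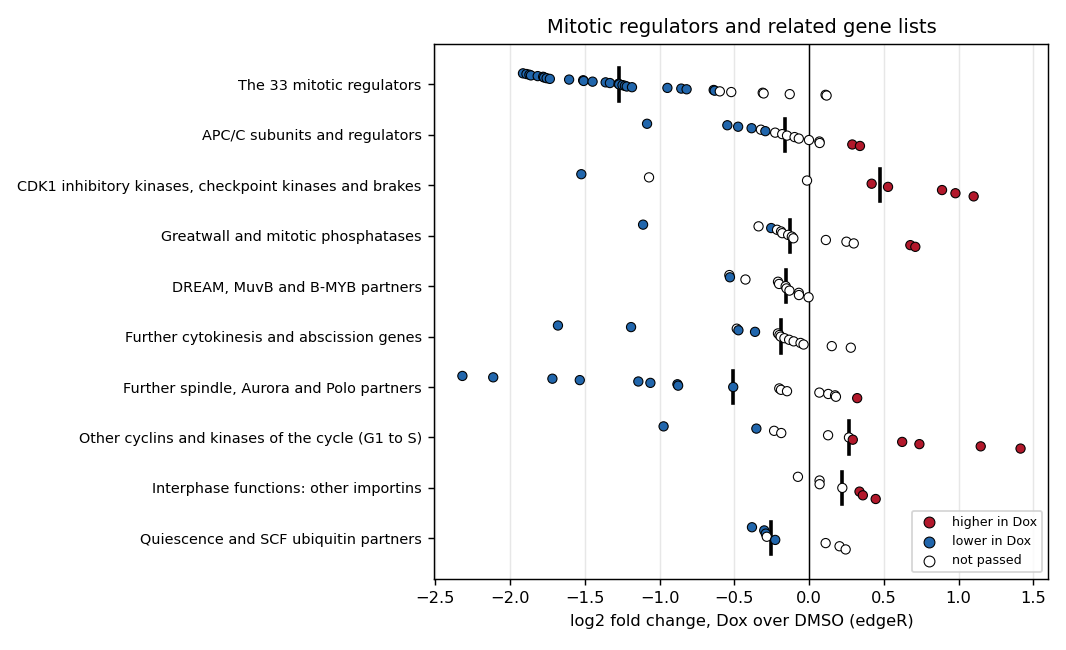
Log2 fold change (Dox over DMSO, horizontal axis, edgeR) of each tested gene of the 33 regulators and of each pathway list, 1 point a gene, red for higher in Dox, blue for lower in Dox and open for not passed, with a black bar at the median of the list. The median is -1.27 for the 33 regulators, -0.51 for the spindle partners and 0.47 for the CDK1 inhibitory kinases, checkpoint kinases and brakes.

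The mean transcript length that RSEM assigns to each gene, which follows the mix of isoforms, gave no call. None of 12836 genes whose length varied passed limma at an adjusted p of 0.05 (0.0% called), while 1137 genes (8.86%) had an unadjusted p under 0.05. Of 31 regulators tested, CDK1 alone was in that set, with lengths of 1895 and 1897 bases in Dox libraries and 1802 and 1749 bases in DMSO libraries (log2 ratio 0.09, limma adjusted p = 0.536, between 0.498 and 0.770 over the alternatives). The length of 16 regulators varied by less than 1.1-fold over the 4 libraries, while 8 varied more widely, from 1.26-fold for PRC1 to 1.52-fold for CDC25A and CKAP2L.

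The calls rest on the deposited counts. By limma on log2(TPM + 1) 8 of the 26 genes that fell passed, on log2(TPM + 0.1) 7 passed, and on counts per kb scaled by TMM, with 0.1 added as well, 24 passed. The cause of this difference was not tested.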

How the data were processed

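Total RNA of BJ fibroblasts was measured in 2 Dox and 2 DMSO libraries, grouped by title, with the treatment label the same way. The submitters' processing notes name RSEM, STAR, cutadapt, Picard and hg38. Versions, annotation release and strand setting: not given in the sources used here. The deposited expected counts are estimated reads per gene and need not be whole, per the file headers. The deposited TPM values are scaled to length and to 1 total per library, per the file headers. The deposited FPKM values are named so in the file headers and were not used.

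Expected counts were rounded. Identifiers were matched to GENCODE 29 (GRCh38), 58597 of 58870 (99.54%). Genes were kept by filterByExpr (minimum count 10, minimum total 15), scaled by TMM and tested with edgeR 4.0.16 (glmQLFit and glmQLFTest, group as the only term) in R 4.3.3, with Benjamini-Hochberg adjusted p-values and a threshold of 0.05. Limma 3.58.1 and DESeq2 1.42.0 gave alternatives. Standard errors are the absolute log2 fold change over the square root of F. The 33 genes and the pathway and marker lists were chosen with earlier results of these data known. All 33 are named, and from each list the 2 genes with the smallest adjusted p in each direction. A planned comparison of CDC25 and cyclin proteins was not run here. Promoters are RefSeq windows (GRCh38.p14), the first for each gene.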

Additional observations from a re-analysis of the deposited data

How the results depend on the processing

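Of the 26 lower genes, all 26 remained with RLE, upper-quartile scaling, no filter, the replicate block, GC-trend offsets, removal of 7SL and mitochondrial genes and, added after seeing the data, protein-coding genes alone. With library totals and DESeq2 24 remained, and with glmTreat at 1.5-fold 21. Library totals put 35.53% of all calls on the lower side, against 45.52% in the main analysis. The median of all tested genes shifted to 0.12 with no filter, 0.15 with DESeq2 and 0.13 with log2(TPM + 0.1). By limma on log2(TPM + 1), log2(TPM + 0.1) and log2(TPM + 1) with a mean TPM of at least 1, 8, 7 and 0 of the 33 genes were lower (13 tested in the last). The same 3 settings gave 198, 198 and 80 lower and 596, 637 and 132 higher genes in all, 4, 4 and 0 lower and 1, 1 and 0 higher pathway genes, and a median log2 fold change of the members of -0.34, -0.87 and -0.35. The log2 fold change of KPNA2 reversed there, at 0.010, 0.00854 and 0.010. Counts per kb and TMM-scaled library, added after seeing the data, gave 24 of the 33, 17 lower pathway genes and a median of -1.18. GlmTreat gave 480 lower and 787 higher genes in all, and 8 lower and 4 higher pathway genes. GC-trend offsets gave 29 lower of the 33 (AURKA, UBE2S and CKAP2L gained), 3644 lower genes in all and 44 in the pathway lists, and the replicate block with these offsets 30 (CDC25A gained too), 3985 and 46. The cause of these shifts was not tested.

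No label says whether same-numbered libraries share more than a number. Their deviations from the group means correlated at 0.0633 over 13205 genes, and a low correlation cannot show that no batch was shared. With the replicate block 27 of the 33 were lower, CKAP2L among them, with 2511 lower and 2972 higher genes in all. Leaving out each library gave 23 to 31 lower and 0 to 1 higher of the 33, 1000 to 5017 lower and 1368 to 4654 higher genes in all, 15 to 54 lower and 8 to 32 higher pathway genes, and a median log2 fold change of the members of -1.37 to -1.22. The lone library is assumed to vary like the other group, so leaving out a Dox library takes the spread from the DMSO pair alone. The chi-square per degree of freedom was 2.40 for that pair and 60.5 for the Dox pair. A pass gained in this way is no support for a gene. ESPL1 and PTTG1 lost their calls without either DMSO library, CDC25C without DMSO replicate 1. The log2 fold change of ECT2 turned to -0.00800 without Dox replicate 1 and was 0.22 without Dox replicate 2. In 2 of the 33 genes the lowest library had under 30 counts.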
